A study of Mus musculus with 9 samples.

Results

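The mitochondrial fatty acid oxidation enzymes were 10 genes taken by symbol from the count table: Cpt1a, Slc25a20 and Cpt2 of the carnitine shuttle, the acyl-CoA dehydrogenases Acadvl, Acadl and Acadm, the trifunctional protein subunits Hadha and Hadhb, and Etfa and Etfdh of electron transfer. They are 10 of the 28111 genes counted, and all 10 were among the 14817 genes that had enough counts to be tested. The rule used symbols and known function, not measured values. The libraries were mRNA of induced regulatory T cells (Treg), cultured CD4 T cells in which the lineage factor Foxp3 was induced, and all mice were of the C57BL/6J strain. A Glut1 transgene was carried by the mice of 4 libraries (Glut1Tg; Glut1 is the glucose transporter encoded by Slc2a1) , and the mice of the other 5 were wild-type (WT). The labels also put each library in a mouse group. Mouse group 1 held WT replicates 1 and 3 and Glut1Tg replicates 2, 3 and 4, and mouse group 2 held WT replicates 2, 4 and 5 and Glut1Tg replicate 1. The sources used here do not give the transgene's promoter, the age of the mice, what distinguishes the mouse groups, or whether animals were kept separate or pooled. Each p-value therefore reflects spread among these particular libraries, and that spread may be technical.

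Long-chain fatty acids enter the mitochondrial matrix as carnitine esters: Cpt1a makes the ester at the outer membrane, Slc25a20 carries it across the inner membrane, and Cpt2 turns it back into an acyl-CoA. Each round of beta-oxidation then begins with an acyl-CoA dehydrogenase and goes on through hydration, another oxidation and thiolysis, which the trifunctional protein carries out for long chains. Electrons from the dehydrogenases pass through the electron transfer flavoprotein and its dehydrogenase to ubiquinone. Fatty acid oxidation is known as a favoured fuel route of Treg, while raised Glut1 is known to increase glucose uptake, and comparing the genotypes asks how the expression of the oxidation enzymes differed where the transporter is in excess.

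Total counts per library lay between 20881035 and 31196428. Treg identity genes were present in all libraries, with Foxp3 at 621 to 1164 CPM (a gene's counts relative to its library's total, scaled by TMM) and Cd4 at 448 to 802 CPM, and Slc2a1 stood at 260.2 to 496 CPM in Glut1Tg against 29.7 to 58.7 CPM in WT. WT replicate 2 and Glut1Tg replicate 1, both in mouse group 2, stood away from the remaining 7 on the first principal component (scores 65.3 and 77.4 against -37.2 to 10.7; 52.2% of the variance). The summed level of 6 proliferation markers was 4464 and 4531 CPM in those 2 libraries and 811 to 1934 CPM in the rest. Il2ra, which encodes an interleukin-2 receptor chain, had 2386 and 2959 CPM in the 2 libraries against 241 to 690 CPM. With Il2ra, the 9 T cell and Treg identity genes summed to 3498 to 4348 CPM in mouse group 1. In mouse group 2 they summed to 4231 to 6311 CPM. Among the 9, 4 had a positive log2 fold change of mouse group 2 over mouse group 1, and the median of the 9 was -0.18. The summed level of 8 mast cell and basophil markers was 292 to 2401 CPM in mouse group 1, highest in Glut1Tg replicate 3, and 92.3 to 784 CPM in mouse group 2. Neutrophil and macrophage markers (8 genes) summed to 15.1 to 394 CPM and 3.37 to 26.2 CPM, erythroid and platelet markers (6 genes) to 48.8 to 1018 CPM and 4.12 to 272 CPM. B cell markers (4 genes) stayed at 9.55 CPM or less and CD8 T and NK cell markers (5 genes) at 15.5 CPM or less.

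All 10 enzymes were expressed in every library, with between 122 and 6103 counts for a gene in a library. Together they took 0.0654% to 0.0694% of scaled counts in the 5 libraries of mouse group 1, 0.0737% and 0.0749% in WT replicates 4 and 5, and 0.100% and 0.0981% in WT replicate 2 and Glut1Tg replicate 1. Ordered by mean CPM per kb of annotated exon over the 9 libraries, Acadl, the long-chain acyl-CoA dehydrogenase, came first at 43.2 ± 11.9 CPM per kb (SD, n = 9). Etfa followed at 28.1 ± 10.02 CPM per kb and Acadvl at 23.1 ± 8.27 CPM per kb. Cpt1a, Hadha and Hadhb stood close together at 18.7 ± 7.51, 17.4 ± 2.81 and 16.7 ± 3.98 CPM per kb, differences smaller than their spread. Acadm had 11.9 ± 1.28 CPM per kb, Slc25a20 had 9.01 ± 0.682 CPM per kb, Etfdh had 7.19 ± 1.21 CPM per kb, and Cpt2 was lowest at 4.39 ± 2.77 CPM per kb. Neighbours in this order differed by less than the larger of their SDs except Acadl and Etfa, Hadhb and Acadm, Acadm and Slc25a20, Slc25a20 and Etfdh, and Etfdh and Cpt2 (SDs over 9 libraries of both genotypes and mouse groups). With the length of each gene's longest transcript in place of all exons, Acadl stayed first at 45.2 and Cpt2 last at 4.42 CPM per kb, while Hadha moved up next to Acadl at 37.9 CPM per kb.

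**Figure D1:**
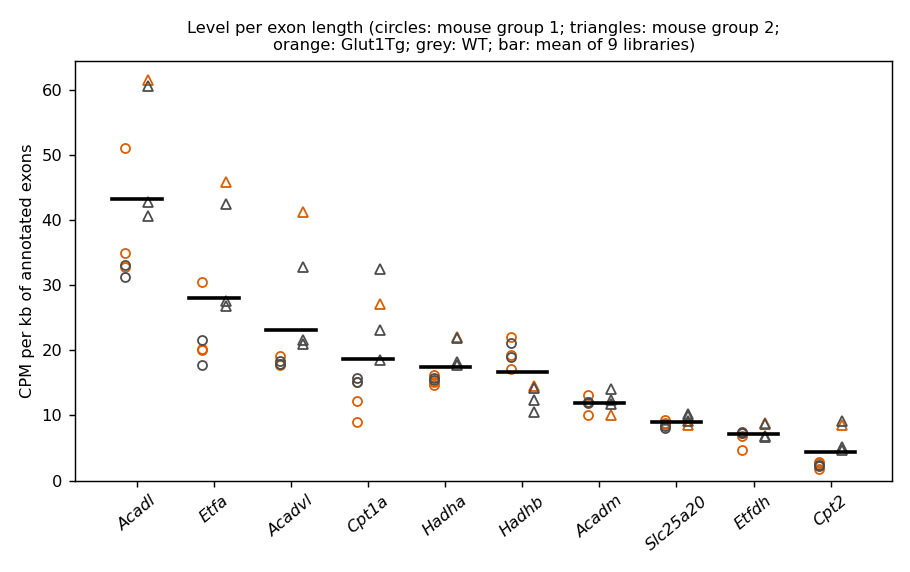
Level of each enzyme gene per kb of annotated exon (vertical axis, CPM per kb) in each of the 9 libraries, genes ordered by their mean (bar). Acadl is highest at a mean of 43.2 and Cpt2 lowest at 4.39 CPM per kb. In Cpt1a, Cpt2, Acadvl and Hadha all triangles (mouse group 2) lie above all circles (mouse group 1), and in Hadhb all lie below.

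Genotype was compared first, with mouse group as a term in the model. None of the 10 enzymes differed between Glut1Tg and WT at an adjusted p under 0.05 by edgeR's quasi-likelihood test, and none had an unadjusted p under 0.05, where 6% of all genes did. DESeq2 and limma-voom also called 0 of the 10. Across all genes tested, 0.00675% were called (1 of 14817), so 0 of 10 is close to the background. The median log2 fold change of the enzymes was 0.06, against 0.02 over all genes tested. In bulk RNA a lower level can mean fewer cells of a type or less RNA per cell, which cannot be told apart.

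The 95% intervals of the genotype fold limit how large a difference the data allow for each enzyme. For Slc25a20 the fold of Glut1Tg over WT was 1.00 (0.832 to 1.2), for Hadha 1.04 (0.866 to 1.25) and for Hadhb 1.05 (0.838 to 1.3). For Etfdh it was 0.968 (0.733 to 1.28) and for Acadm 0.899 (0.725 to 1.12). These intervals exclude a change of 1.5-fold in either direction. Wider intervals were found for Cpt1a, the regulated entry step, at 0.897-fold (0.640 to 1.26), and for Cpt2 at 1.18-fold (0.786 to 1.76). Etfa had 1.28-fold (0.929 to 1.76), Acadl 1.25-fold (0.935 to 1.67) and Acadvl 1.23-fold (0.913 to 1.65), the smallest adjusted p among the 10 being 0.681. No enzyme had values that did not overlap between the genotypes, where 1.59% of all genes did. For the 5 enzymes whose mouse groups did not overlap this was fixed beforehand, because each genotype had libraries in both mouse groups. Within mouse group 1 alone (3 Glut1Tg against 2 WT) the 10 log2 fold changes ran from -0.35 to 0.29 with 0 called, and within mouse group 2 (1 Glut1Tg against 3 WT, the lone library assumed to vary like the others) from -0.38 to 0.69 with 0 called. Across all genes edgeR also called 0 of 15124 within mouse group 1 and 0 of 15778 within mouse group 2 (1.94% and 5.03% at an unadjusted p under 0.05), so a count of 0 enzymes there is the background.

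**Figure D2:**
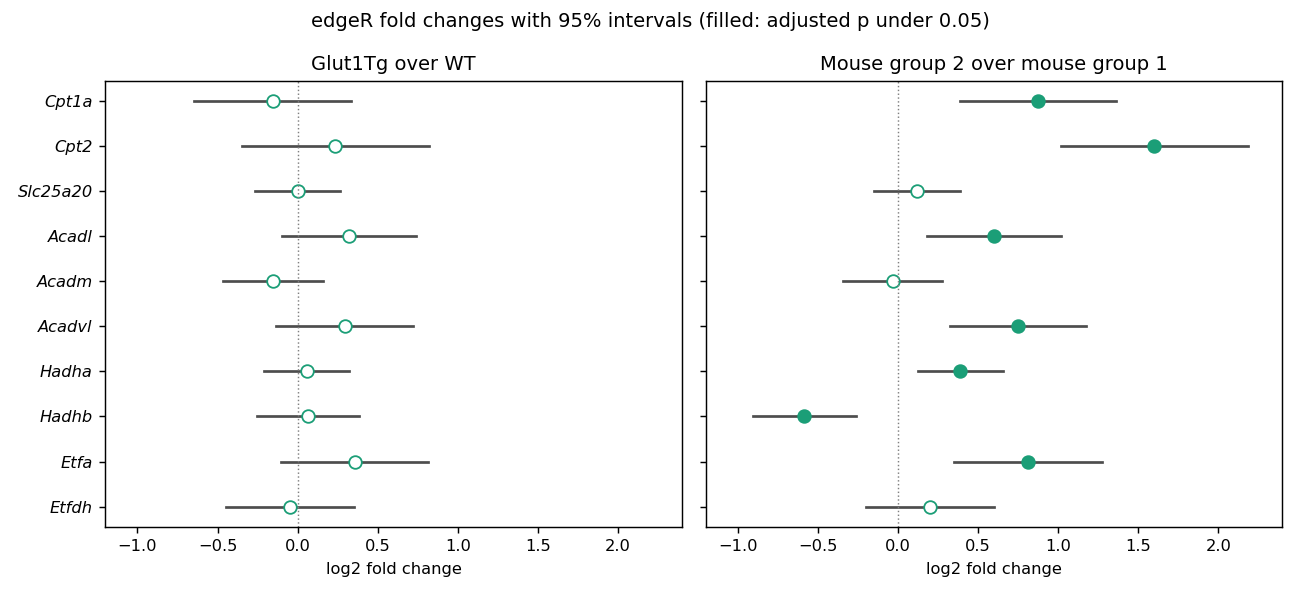
Log2 fold change of each enzyme gene (horizontal axis) with its 95% interval, Glut1Tg over WT on the left and mouse group 2 over mouse group 1 on the right; filled points passed an adjusted p of 0.05. All 10 points on the left are open, and on the right 6 filled points lie above 0 and 1, Hadhb, lies below.

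Between the mouse groups, 7 of the 10 enzymes passed the test, 6 of them higher in mouse group 2 and 1 lower. The share among all genes tested was 24.1% (13.1% higher and 11% lower), and the median log2 fold change was 0.49 for the enzymes and -0.01 over all genes. All 7 also had an unadjusted p under 0.05, as did 39.4% of all genes. Cpt2, Cpt1a, Etfa, Acadvl, Acadl and Hadha rose from mouse group 1 to mouse group 2, Hadhb fell, and Slc25a20, Acadm and Etfdh did not pass. In 5 of the 10 the values of the mouse groups did not overlap, against 21.8% of all genes. The calls depended on single libraries: without Glut1Tg replicate 1, 0 of the 10 passed, while the share of all genes that passed dropped to 4.3%. At an unadjusted p under 0.05 there were 5 enzymes in that fit, beside 22.6% of all genes. Without WT replicates 1, 2 or 3 in turn 3, 3 and 2 enzymes passed, and 13%, 14.5% and 13.4% of all genes did. With WT replicate 2 and Glut1Tg replicate 1 both left out, 0 passed, against 3.74% of all genes, and Cpt2 and Hadhb had an unadjusted p under 0.05, as did 22% of all genes. Among the WT libraries alone (3 against 2) 0 passed, against 4.18% of all genes, and 5 enzymes had an unadjusted p under 0.05, as did 24.1% of all genes. The direction of each of the 7 was the same in all 17 alternatives run. The 2 libraries left out had the highest proliferation sums, and the part of that difference in these results was not tested.

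**Figure D3:**
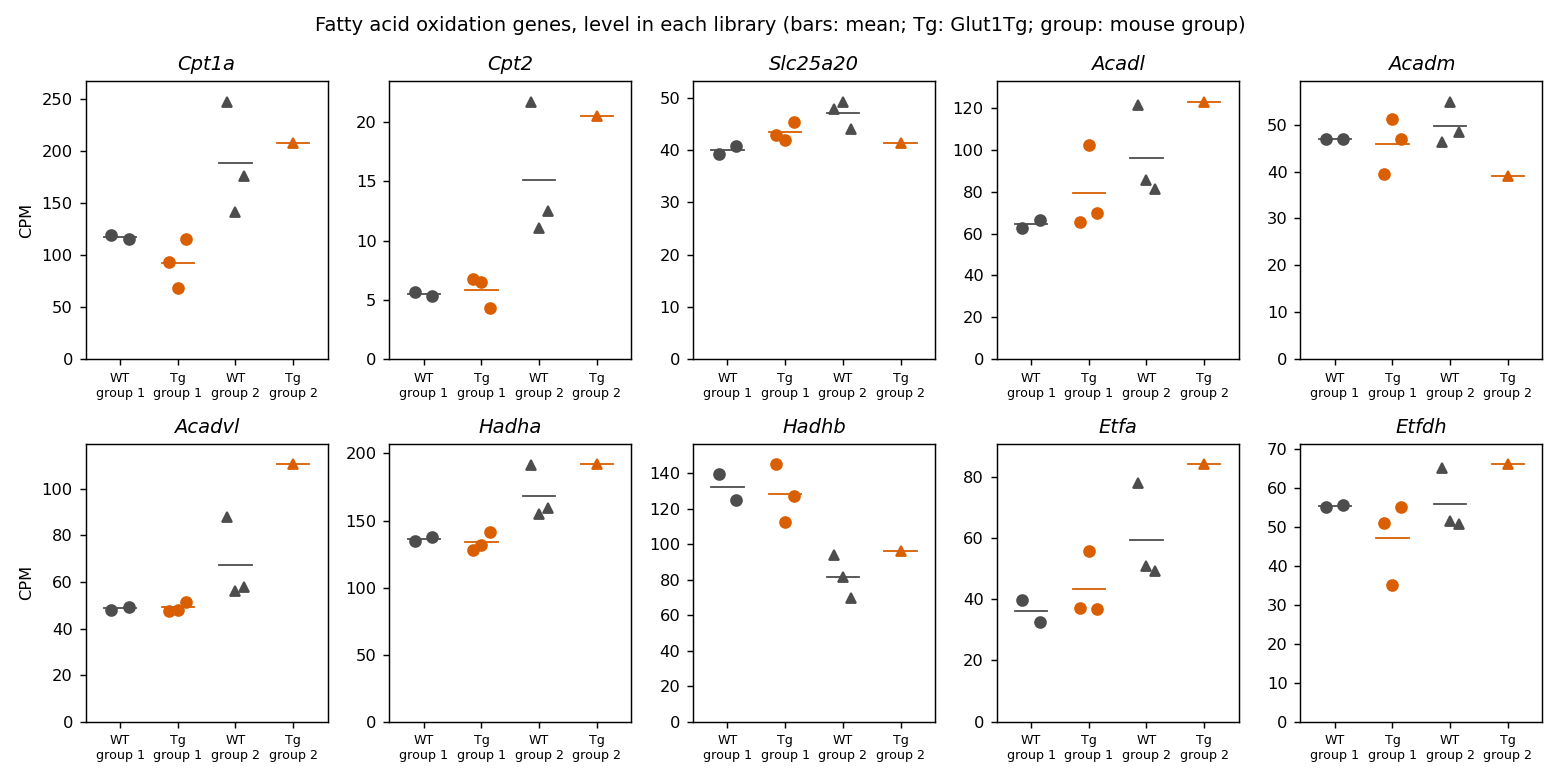
CPM of each enzyme gene (vertical axis, starting at 0) in each library, by genotype (WT grey, Glut1Tg orange) and mouse group (circles group 1, triangles group 2), with bars at the means. Slc25a20 and Acadm vary by less than 1.5-fold over all libraries, while Cpt2 varies 5.04-fold.

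Cpt1a (ENSMUSG00000024900, chr19:3322334-3385733, plus strand), a carnitine palmitoyltransferase on which malonyl-CoA acts, is the liver-type isoform. The mm10 positions of genes here and below are from GENCODE M21. Its levels in mouse group 1 were 119.7 and 116 CPM in WT replicates 1 and 3 and 93.4, 68.5 and 115 CPM in Glut1Tg replicates 2, 3 and 4. In mouse group 2 they were 248, 142 and 177 CPM in WT replicates 2, 4 and 5 and 208 CPM in Glut1Tg replicate 1. Every mouse group 2 library lay above every mouse group 1 library, WT replicate 2 was highest and Glut1Tg replicate 3 lowest. The fold was 1.83 (95% interval 1.31 to 2.56; log2 0.87, SE 0.22; edgeR adjusted p = 0.0205), and the gene passed in 5 of the 9 fits that left out 1 library. Without WT replicate 2 and Glut1Tg replicate 1 the log2 difference was 0.45 (adjusted p = 0.368). The muscle-type Cpt1b stood at 0.320 to 0.878 CPM and the brain-type Cpt1c at 0.934 to 7.16 CPM.

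Cpt2 (ENSMUSG00000028607, chr4:107903981-107923610, minus strand), the inner-membrane transferase, showed the widest difference of the 10. In mouse group 1 it had 5.63 and 5.32 CPM in WT replicates 1 and 3 and 6.76, 6.51 and 4.32 CPM in Glut1Tg replicates 2, 3 and 4. In mouse group 2 it had 21.7, 11.1 and 12.5 CPM in WT replicates 2, 4 and 5 and 20.5 CPM in Glut1Tg replicate 1. The mouse groups did not overlap. WT replicate 2 and Glut1Tg replicate 1 were the highest libraries, so leaving them out cannot change that. The fold was 3.03 (2.02 to 4.54; log2 1.60, SE 0.26; adjusted p = 0.00459). It passed in 8 of the 9 fits with 1 library left out, and without both libraries named the log2 difference was 1.12 (adjusted p = 0.0752). The count ratio of Cpt1a to Cpt2 ran from 10.5 to 26.7 in mouse group 1 and from 10.1 to 14.1 in mouse group 2, ranges that overlap.

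Slc25a20 (ENSMUSG00000032602, chr9:108662088-108684641, plus strand), the carnitine-acylcarnitine translocase between the 2 transferases, was nearly flat. It had 39.3 and 40.8 CPM in WT replicates 1 and 3, 42.8, 41.9 and 45.3 CPM in Glut1Tg replicates 2, 3 and 4, 47.8, 49.3 and 44.0 CPM in WT replicates 2, 4 and 5 and 41.4 CPM in Glut1Tg replicate 1. The mouse groups overlapped, and the highest library was 1.25 times the lowest. The fold of mouse group 2 over mouse group 1 was 1.08 (0.902 to 1.3; log2 0.12, SE 0.12; adjusted p = 0.492). The transferases of the shuttle were higher in mouse group 2, while the interval for the translocase between them ended at 1.3-fold. Stretches of at least 100 bases with at least 95% identity to Slc25a20 were found in transcripts of 34 other genes, the longest of 366 bases, so its reads may be shared with them.

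The upstream sequences of the transferase genes are printed because these genes had the largest rises of the 10. They are RefSeq windows of 250 bases before the start site (GRCm38.p6), shortened to the part outside GENCODE exons. They run 5′ to 3′ on the gene's strand, Cpt1a from chr19:3323051-3323284 (plus) and Cpt2 from chr4:107923611-107923839 (minus). For Cpt1a the RefSeq start is 3323301, while the GENCODE gene starts at 3322334, so its window lies inside the GENCODE gene. Capitals mark matches, on either strand, to the GC box GGGCGG, the CCAAT box (letters as in its name), the nuclear receptor site AGGTCA or the E-box CACGTG.
Cpt1a: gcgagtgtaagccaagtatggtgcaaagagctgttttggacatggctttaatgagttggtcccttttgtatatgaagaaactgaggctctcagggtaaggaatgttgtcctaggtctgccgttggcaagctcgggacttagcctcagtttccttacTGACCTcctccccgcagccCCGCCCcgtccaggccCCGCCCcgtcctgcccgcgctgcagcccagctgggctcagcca
Cpt2: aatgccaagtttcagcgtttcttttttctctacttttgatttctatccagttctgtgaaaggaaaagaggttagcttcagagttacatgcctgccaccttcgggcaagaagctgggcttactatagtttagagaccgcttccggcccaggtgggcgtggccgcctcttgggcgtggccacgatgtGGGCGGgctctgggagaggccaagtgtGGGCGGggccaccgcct
Both windows held 2 GC boxes, which 32.7% of 32851 RefSeq windows contain at least once, and the Cpt1a window also held 1 nuclear receptor site, which 14% contain. GC boxes were found in the full windows of 6 of the 10 enzymes, and motifs were not tested against the levels. The CCAAT box was found in 3 of 10 windows (33.8% of all), the nuclear receptor site in 3 of 10 and the E-box in 0 of 10 (6.02% of all). A direct repeat of the nuclear receptor site with 1 base between the copies was in 0 of the 10 and in 0.0335% of all windows. The Cpt1a window's CCAAT box lies partly in its 16 bases of exon and is not printed. A match is a description of these letters only.

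Among the acyl-CoA dehydrogenases, Acadl and Acadvl, which act on long chains, rose and Acadm, which acts on medium chains, did not pass. Acadl (ENSMUSG00000026003, chr1:66830839-66863277, minus strand) had 62.7 and 66.4 CPM in WT replicates 1 and 3 and 65.8, 102 and 70.0 CPM in Glut1Tg replicates 2, 3 and 4. Its mouse group 2 levels were 122, 85.9 and 81.6 CPM in WT replicates 2, 4 and 5 and 123 CPM in Glut1Tg replicate 1. Glut1Tg replicate 3 put mouse group 1 into the range of mouse group 2, and this was the library with the highest mast cell, myeloid and erythroid marker sums; the part of these markers was not tested. The fold of mouse group 2 over mouse group 1 was 1.51 (1.13 to 2.02; log2 0.60, SE 0.18; adjusted p = 0.0439). Acadl passed in 3 of the 9 fits that left out 1 library and did not pass when the genotype term was dropped (adjusted p = 0.0878).

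Acadvl (ENSMUSG00000018574, chr11:70010183-70015411, minus strand), the membrane-bound very-long-chain enzyme, had 47.9 and 49.4 CPM in WT replicates 1 and 3 and 47.7, 48.1 and 51.5 CPM in Glut1Tg replicates 2, 3 and 4. In mouse group 2 it had 88.0, 56.1 and 57.9 CPM in WT replicates 2, 4 and 5 and 111 CPM in Glut1Tg replicate 1. No values overlapped, and WT replicates 4 and 5 exceeded the highest library of mouse group 1 by a small margin. The fold was 1.68 (1.25 to 2.25; log2 0.75, SE 0.19; adjusted p = 0.0219). It passed in 7 of the 9 fits that left out 1 library, and the log2 difference fell from 0.75 to 0.24 without both WT replicate 2 and Glut1Tg replicate 1. The gene shares 1151 of its 2686 exon bases with Dvl2 on the opposite strand, and Dvl2 was also higher in mouse group 2 (1.78-fold, 1.4 to 2.25; adjusted p = 0.00706). The kit marks strand, but the sources used here do not give the strand setting of the counting, so Acadvl is uncertain. In Dvl2 the highest libraries were WT replicates 4 and 5 (50.5 and 47.2 CPM), and the pair that was highest in Acadvl had 34.0 and 31.9 CPM. How far reads of Dvl2 entered the Acadvl counts of any library was not tested.

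Acadm (ENSMUSG00000062908, chr3:153922357-153944632, minus strand) had 46.9 and 47.0 CPM in WT replicates 1 and 3 and 39.4, 51.2 and 46.9 CPM in Glut1Tg replicates 2, 3 and 4. In mouse group 2 it had 46.2, 54.9 and 48.3 CPM in WT replicates 2, 4 and 5 and 39.1 CPM in Glut1Tg replicate 1. Both extremes lay in mouse group 2, so the groups overlapped throughout. The fold was 0.977 (0.788 to 1.21; log2 -0.03, SE 0.14; adjusted p = 0.873). This interval overlaps that of Acadl (1.13 to 2.02), and the difference between the 2 genes was not tested.

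The trifunctional protein is an octamer of alpha subunits, encoded by Hadha with the hydratase and the hydroxyacyl-CoA dehydrogenase activities, and beta subunits, encoded by Hadhb with the thiolase activity. Its subunit genes moved in opposite directions between the mouse groups. Hadha (ENSMUSG00000025745, chr5:30118304-30155162, minus strand) had 135 and 138 CPM in WT replicates 1 and 3 and 128, 132 and 141 CPM in Glut1Tg replicates 2, 3 and 4, against 191, 155 and 159 CPM in WT replicates 2, 4 and 5 and 192 CPM in Glut1Tg replicate 1. Hadhb (ENSMUSG00000059447, chr5:30155248-30184593, plus strand) had 139.5 and 125 CPM in WT replicates 1 and 3 and 145, 113 and 127 CPM in Glut1Tg replicates 2, 3 and 4, against 94.1, 81.3 and 69.6 CPM in WT replicates 2, 4 and 5 and 96.1 CPM in Glut1Tg replicate 1. Neither gene overlapped between the mouse groups: Hadha was higher in all 4 libraries of mouse group 2 and Hadhb lower in all 4. Hadha rose 1.31-fold (1.09 to 1.57; log2 0.39, SE 0.12; adjusted p = 0.0399) and passed in 3 of the 9 fits that left out 1 library, but not without the filter on low counts (adjusted p = 0.0770). Hadhb fell to 0.666-fold (0.533 to 0.832; log2 -0.59, SE 0.14; adjusted p = 0.0195) and passed in 6 of the 9. Within mouse group 2, WT replicate 2 and Glut1Tg replicate 1 had the higher levels of both subunits, and without them the log2 differences were 0.22 for Hadha (adjusted p = 0.406) and -0.80 for Hadhb (adjusted p = 0.0599).

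The ratio of Hadha to Hadhb counts within a library needs no scaling between libraries. It was 0.965 and 1.1 in WT replicates 1 and 3 and 0.882, 1.17 and 1.11 in Glut1Tg replicates 2, 3 and 4, and it was 2.03, 1.90 and 2.28 in WT replicates 2, 4 and 5 and 2.00 in Glut1Tg replicate 1. All 4 ratios of mouse group 2 lay above all 5 of mouse group 1. This separation follows from Hadha being higher and Hadhb lower in all 4 libraries of mouse group 2. The permutation test of the ratio by mouse group therefore restates those results and is no separate support. The library pair that stood apart on the first principal component did not stand apart in the ratio. On the log2 scale the means were 1.03 ± 0.11 (SD, n = 4) and 0.06 ± 0.17 (SD, n = 5), a difference of 0.98 or 1.97-fold (exact two-sided permutation p = 0.00794, which this design cannot undercut; Benjamini-Hochberg adjusted p = 0.0317 over the 4 ratio tests). Leaving out each library in turn gave differences of 0.92 to 1.02. The exact permutation p ran from 0.0179 to 0.0286, which adjust to 0.0714 to 0.114 over the 4 tests. Each unadjusted p is the lowest that the remaining libraries allow, so its rise does not measure a weaker difference. Between genotypes the ratio differed by -0.35 on the log2 scale (exact permutation p = 0.365, adjusted p = 0.487). In Hadhb, stretches of at least 100 bases with at least 95% identity were found in transcripts of 55 other genes, the longest of 196 bases, so reads there may have been lost or shared; Hadha had none.

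**Figure D4:**
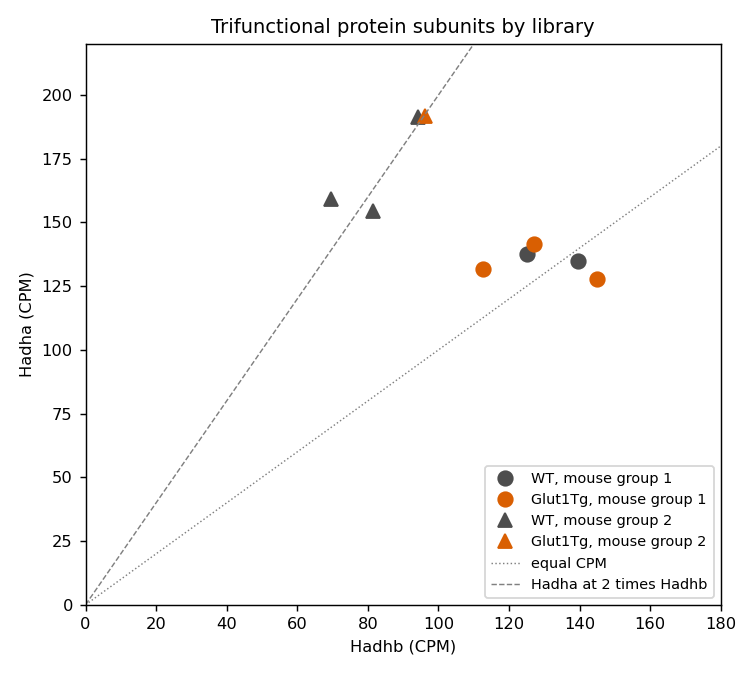
Level of Hadha (vertical axis, CPM) against Hadhb (horizontal axis, CPM) in the 9 libraries, by genotype (colour) and mouse group (shape), with lines at equal level and at Hadha 2 times Hadhb. The 5 circles of mouse group 1 lie near the line of equal level and the 4 triangles of mouse group 2 near the steeper line.

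Hadha and Hadhb stand head to head on chromosome 5, with RefSeq start sites at 30154980 (minus strand) and 30155253 (plus strand), 273 bases apart, so that a single short stretch lies upstream of both. It is shown because the genes on its sides moved in opposite directions. The part outside GENCODE exons, chr5:30155163-30155247 (GRCm38.p6, plus strand, read towards Hadhb), holds 85 bases at a GC content of 69.4%.
Hadha to Hadhb: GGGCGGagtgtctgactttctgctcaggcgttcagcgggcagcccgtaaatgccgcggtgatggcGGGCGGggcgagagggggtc
Capitals mark 2 matches to the GC box. Over all 272 bases between the RefSeq start sites there were 2 GC boxes, both in the printed part, and no CCAAT box, nuclear receptor site or E-box. Of the other 8 enzymes, Etfdh alone had a divergent start within the short distance searched, 312 bases from that of 4930579G24Rik. Etfdh shares 278 of its 7505 exon bases with that gene on the opposite strand. Hadha shares 75 of its 8730 exon bases with Garem2 on the opposite strand. The unknown strand setting of the counting therefore limits these genes too.

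In the electron transfer step, Etfa rose and Etfdh did not pass. Etfa (ENSMUSG00000032314, chr9:55454508-55512243, minus strand), the alpha subunit of the electron transfer flavoprotein, had 39.7 and 32.5 CPM in WT replicates 1 and 3 and 37.0, 55.9 and 36.7 CPM in Glut1Tg replicates 2, 3 and 4. In mouse group 2 it had 77.8, 50.7 and 49.3 CPM in WT replicates 2, 4 and 5 and 84.0 CPM in Glut1Tg replicate 1. As with Acadl, Glut1Tg replicate 3 was the mouse group 1 library that reached the range of mouse group 2. Its fold was 1.75 (1.27 to 2.41; log2 0.81, SE 0.20; adjusted p = 0.0219), and it passed in 7 of the 9 fits with 1 library left out. Without both WT replicate 2 and Glut1Tg replicate 1 the log2 difference was 0.48 (adjusted p = 0.273). The Etfa transcript shares a stretch of 244 bases, 95.1% identical, with the pseudogene Gm15289, and how the counting treated reads that match both is not known, so Etfa is uncertain to that extent. The same limit holds for Slc25a20 and Hadhb, whose transcripts share stretches of up to 366 and 196 bases (98.9% and 95.9% identical) with those of 34 and 55 other genes. The beta subunit gene Etfb, which is not among the 10, had a fold of 1.68 (0.940 to 3.00; adjusted p = 0.168), and the log2 ratio of Etfa to Etfb counts did not differ beyond its spread by mouse group (difference 0.15; exact permutation p = 0.667, adjusted p = 0.667) or by genotype (difference -0.37; exact permutation p = 0.127, adjusted p = 0.254).

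Etfdh (ENSMUSG00000027809, chr3:79603788-79629500, minus strand), the ubiquinone oxidoreductase that takes electrons from the flavoprotein, had 55.2 and 55.7 CPM in WT replicates 1 and 3 and 51.1, 35.1 and 55.0 CPM in Glut1Tg replicates 2, 3 and 4. In mouse group 2 it had 65.2, 51.5 and 50.7 CPM in WT replicates 2, 4 and 5 and 66.1 CPM in Glut1Tg replicate 1. The groups overlapped, with Glut1Tg replicate 3 below the rest and WT replicate 2 and Glut1Tg replicate 1 at the top. The fold was 1.15 (0.869 to 1.51; log2 0.20, SE 0.18; adjusted p = 0.438).

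The upstream windows of Acadl and Etfa are shown because their profiles over the 9 libraries were the closest of any rising pair among the 10 enzymes. They are RefSeq windows of 250 bases before each start site, chr1:66863310-66863559 and chr9:55512244-55512493 (GRCm38.p6, minus strand, 5′ to 3′), with capitals marking the same motifs as for Cpt1a and Cpt2.
Acadl: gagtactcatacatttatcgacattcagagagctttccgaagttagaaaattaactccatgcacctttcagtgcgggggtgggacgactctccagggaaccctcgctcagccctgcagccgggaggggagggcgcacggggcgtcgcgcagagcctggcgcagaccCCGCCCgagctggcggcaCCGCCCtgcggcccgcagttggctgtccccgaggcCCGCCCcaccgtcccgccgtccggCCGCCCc
Etfa: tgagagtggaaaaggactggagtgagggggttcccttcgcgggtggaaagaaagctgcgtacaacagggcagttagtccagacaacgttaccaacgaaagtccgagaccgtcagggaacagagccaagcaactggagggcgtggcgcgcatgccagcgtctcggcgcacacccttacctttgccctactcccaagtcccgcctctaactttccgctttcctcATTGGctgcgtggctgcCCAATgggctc
The Acadl window held 4 GC boxes and no CCAAT box, and the Etfa window held 2 CCAAT boxes and no GC box, so the marked letters had no motif in common. GC content was 68% in the Acadl window and 58.8% in the Etfa window, against a median of 52.4% over all windows.

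Whether the genotype difference itself differed between the mouse groups was tested as an interaction, which rests on the 1 Glut1Tg library of mouse group 2. By edgeR, 0 of the 10 enzymes passed and 0 had an unadjusted p under 0.05. Among all genes 0% passed and 5.3% had an unadjusted p under 0.05. Acadvl came nearest to passing (log2 0.70, SE 0.34; edgeR adjusted p = 0.741). Leaving out WT replicate 2 changed this background: 140 genes (0.954%) then passed and 23.2% had an unadjusted p under 0.05, while 0 of the 10 enzymes passed and 1, Acadvl, had an unadjusted p under 0.05 (log2 0.91, SE 0.20; edgeR adjusted p = 0.0723). Leaving out any other single library where the interaction could be fitted left 0 to 3 genes called, and 0 enzymes. No other tool was run on the interaction. DESeq2 and limma-voom, run on the mouse group comparison, each called the 7 enzymes that edgeR called.

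Profiles over the 9 libraries were compared by the root mean square distance of centred log2 levels, as a description. Among the 10 enzymes the closest pairs were Slc25a20 with Acadm (0.139) and Acadl with Etfa (0.141). Etfdh was nearest to Hadha (0.191), Acadvl to Etfa (0.220), Cpt1a to Acadvl (0.314), Hadhb to Slc25a20 (0.404) and Cpt2 to Etfa (0.415). Among 8610 named genes of at least 10 CPM, the profile of Cpt1a was most like those of Lclat1 (0.0894), Ints3 (0.0948), Mphosph8 (0.119), Cpne3 (0.126) and Adnp2 (0.131). The libraries share their depth and scaling in these distances. Ints3, for example, had 37.6 to 66.4 CPM in mouse group 1 and 87.4 to 135 CPM in mouse group 2, with Glut1Tg replicate 3 lowest and WT replicate 2 highest, as in Cpt1a.

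Other genes of the pathway were taken from 9 lists of 80 genes, of which 68 were tested. Between genotypes 0 of the 68 passed (edgeR; 2 at an unadjusted p under 0.05). Between mouse groups 24 (35.3%) passed, against 24.1% of all genes, 18 higher and 6 lower in mouse group 2, and the median log2 fold change was 0.28. Without Glut1Tg replicate 1 the count was 4 (5.88%, against 4.3% of all genes). Without both that library and WT replicate 2 it was 5 (7.35%, against 3.74%). The counts by list given below are from the fit of all libraries.

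Supply of acyl-CoA and carnitine differed gene by gene. Of 9 tested genes for fatty acyl-CoA synthetases and uptake, 4 rose and 1 fell, where 13.1% of all genes rose and 11% fell. The long-chain synthetases Acsl5 (1.91-fold, 1.31 to 2.79), Acsl3 (2.21-fold, 1.5 to 3.24) and Acsl6 (6.84-fold, 1.92 to 24.4) rose with the transporter Slc27a4 (1.73-fold, 1.38 to 2.17), while Acsl1 fell to 0.449-fold (0.316 to 0.638). Acsl5 was the most abundant synthetase at 139.8 to 228 CPM in mouse group 1 and 184 to 426 CPM in mouse group 2, and Acsl6 exceeded 50 CPM in WT replicate 2 and Glut1Tg replicate 1 alone (56.8 and 65.7 CPM). Acsl4 (1.41-fold; adjusted p = 0.257) and the fatty acid binding protein Fabp5 (3.03-fold; adjusted p = 0.0889) did not pass. Of 6 tested genes for carnitine uptake, synthesis and transfer 0 rose and 1 fell, Slc22a21 (0.437-fold, at 3.88 CPM or less); the carnitine transporter Slc22a5 (1.01-fold), the carnitine acetyltransferase Crat (0.690-fold; adjusted p = 0.0548) and Aldh9a1 (1.15-fold) did not pass.

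Among enzymes that act beside the 10, Eci1, Acat1, Acaa2, Acadsb, Mut and Mmab rose and Acad9 and Pccb fell. Over all genes tested, 13.1% rose and 11% fell. Of 8 tested hydratases, dehydrogenases, thiolases and isomerases 3 rose and 0 fell: the enoyl-CoA isomerase Eci1 (2.18-fold, 1.75 to 2.73; adjusted p = 0.00204), the acetyl-CoA acetyltransferase Acat1 (1.77-fold) and the thiolase Acaa2 (1.5-fold), while the short-chain dehydrogenase Hadh (1.24-fold; adjusted p = 0.189) did not pass. Eci1 had 11.2 to 15.3 CPM in mouse group 1 and 21.9 to 30.9 CPM in mouse group 2. Of 8 other acyl-CoA dehydrogenase and electron transfer genes Acadsb rose (1.75-fold) and Acad9, also an assembly factor of respiratory complex I, fell (0.717-fold), with Acads (1.24-fold) and Acad8 (1.11-fold) not passing. Of 6 genes for odd-chain products the methylmalonyl-CoA mutase Mut rose 2.79-fold (2.20 to 3.52; adjusted p = 0.00130), from 7.06 to 8.68 CPM in mouse group 1 to 19.7 to 24.6 CPM in mouse group 2, and Mmab rose 1.61-fold. The propionyl-CoA carboxylase subunit gene Pccb fell to 0.716-fold while its partner Pcca stood at 0.954-fold (0.758 to 1.2), and the difference between these subunit genes was not tested.

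Genes that control the shuttle or its transcription were also measured, beside shares over all genes of 13.1% higher and 11% lower in mouse group 2. Of 4 tested genes of malonyl-CoA control, the acetyl-CoA carboxylase Acaca (2.16-fold, 1.3 to 3.59) and the AMP-activated kinase subunit Prkaa1 (1.78-fold, 1.49 to 2.13) rose, and the malonyl-CoA decarboxylase Mlycd did not pass (1.12-fold). Of 8 tested transcriptional regulators 0 rose and 1 fell, the mitochondrial DNA factor Tfam (0.634-fold, 0.527 to 0.763), with Rxrb (1.07-fold) and Nrf1 (1.21-fold; adjusted p = 0.124) not passing. Ppara, Pparg and Ppargc1a, known inducers of these enzymes in other tissues, stayed at or below 0.200, 0.479 and 0.113 CPM, while Ppard stood at 18.8 to 43.7 CPM and Esrra at 12.9 to 23.1 CPM. Peroxisomal oxidation gave 4 rises and 0 falls among 10 tested genes, among them the transporter Abcd3 (2.38-fold), the carnitine octanoyltransferase Crot (1.46-fold) and Decr2 (1.34-fold). Scp2 (0.838-fold), Acaa1a (1.06-fold) and Hsd17b4 (1.24-fold) did not pass. Of 9 tested genes of lipid droplets and lysosomal supply, Plin3 (1.85-fold) and the hormone-sensitive lipase Lipe (2.20-fold) rose and the mitochondrial thioesterase Acot2 fell to 0.359-fold (0.208 to 0.622), while the lipases Pnpla2 (0.890-fold) and Lipa (1.15-fold) did not pass.

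**Figure D5:**
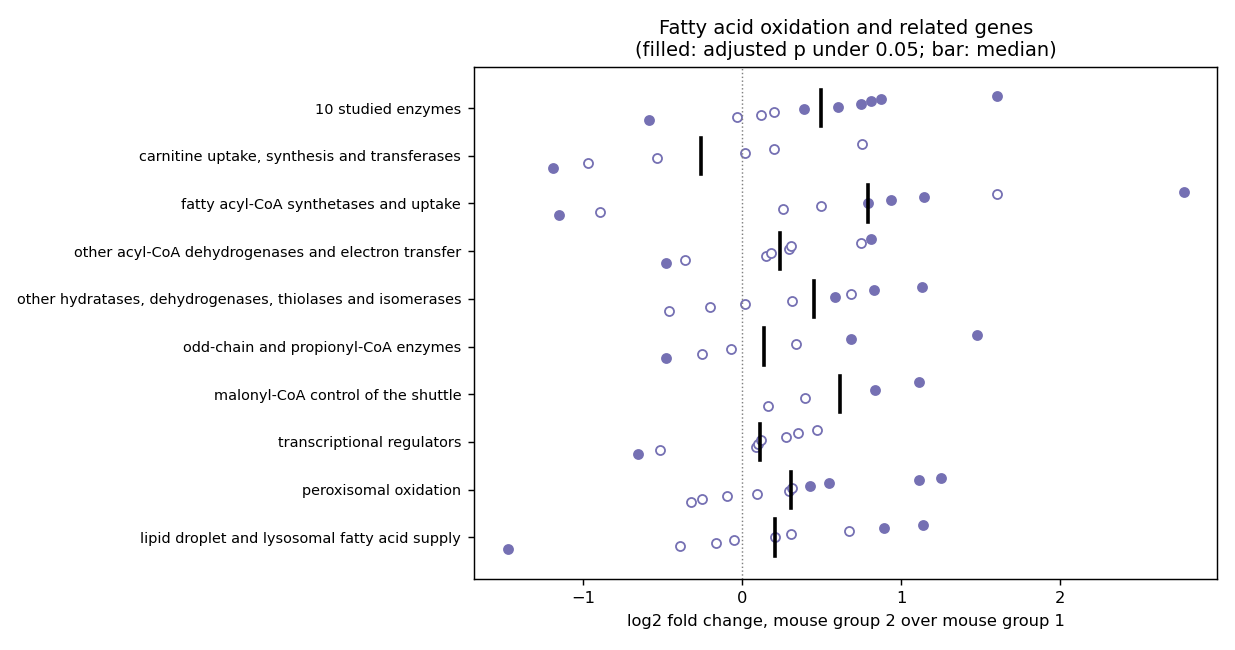
Log2 fold change of mouse group 2 over mouse group 1 (horizontal axis) for the 10 enzymes and the tested genes of 9 related lists; filled points passed an adjusted p of 0.05 and bars mark medians. The 10 enzymes have 7 filled points with a median of 0.49, and the related lists hold 24 filled points, 18 of them above 0. Over all genes tested, 24.1% passed.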

How the data were processed

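Messenger RNA of 9 induced Treg libraries was analysed at the level of genes. Per the labels' protocols, RNA came from RNeasy Plus Mini columns, TruSeq Stranded mRNA libraries were prepared, and sequencing was paired-end (75 bp) on an Illumina instrument. The submitters' processing notes name TopHat2, featureCounts, bcl2fastq and DESeq2 with the build mm10, and the sources used here do not give their versions, settings or strand. One deposited table holds raw whole-number counts per gene, not normalized. A deposited table of processed values was not used.

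Counts were tested in R 4.3.3 with edgeR 4.0.16 (filterByExpr by genotype, TMM, quasi-likelihood F test, terms mouse group and genotype), with Benjamini-Hochberg adjustment over the 14817 genes tested and a 0.05 threshold. CPM used TMM-scaled totals. An SE was taken as the log2 fold change divided by the root of its F value. Libraries held 20881035 to 31196428 counts. The median SE of a genotype log2 fold change was 0.25, which includes the spread among libraries and the arms of 4 and 5. Count ratios were compared by exact two-sided permutation over every split into 4 and 5 libraries. Alternatives were RLE scaling, no filter on low counts, DESeq2 1.42.0, limma-voom (limma 3.58.1), fewer model terms, a replicate block, single mouse groups, WT libraries alone and left-out libraries. The ratios without both WT replicate 2 and Glut1Tg replicate 1 were added after seeing the data. Scripts were tested on simulated data. All libraries differed from each other by more than sampling noise.

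Genes named are the 10 enzymes, list genes that passed a test (at most 5 a list) with up to 3 of the highest mean CPM, the 5 genes nearest to Cpt1a and each enzyme's nearest other enzyme (log2 of CPM + 0.5). One list gene that this rule takes is not reported here. Slc2a1 checks the labels, Foxp3, Cd4 and Il2ra come from the marker lists, Etfb from the subunit ratio, and Dvl2, Cpt1b, Cpt1c, Ppara, Pparg, Ppargc1a, Ppard and Esrra were added for context after values were seen. Members, lists and tests were chosen with earlier results of these data known. Lengths and positions come from GENCODE M21, matched by Ensembl ID for 27926 of 28111 genes, and upstream windows from RefSeq (GRCm38.p6), matched by symbol for 10 of 10.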

Additional observations from a re-analysis of the deposited data

Results flagged for a closer look

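Of 48 groups of values (10 enzymes and 2 ratios, by genotype and by mouse group), 6 held a library whose gap to its nearest neighbour, relative to the range of the group, passed Dixon's 95% limit. Chance flags about 1 in 20 separate groups that are each drawn from 1 population. That rate does not hold here: each value entered a genotype and a mouse group, and the genotype groups mix the mouse groups. Glut1Tg replicate 1, the only transgenic library of mouse group 2, was apart in the transgenic group for Cpt2 (20.5 CPM against 4.32 to 6.76 CPM) and for Acadvl (111 CPM against 47.7 to 51.5 CPM). WT replicate 2, also of mouse group 2, was apart among WT libraries for Acadvl (88.0 CPM against 47.9 to 57.9 CPM). In mouse group 1, Glut1Tg replicate 3 was high for Acadl (102 CPM against 62.7 to 70.0 CPM) and low for Etfdh (35.1 CPM against 51.1 to 55.7 CPM). WT replicate 4 was high among WT libraries for Acadm (54.9 CPM against 46.2 to 48.3 CPM).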

How the results depend on the processing

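Between genotypes, 0 of the 10 enzymes passed under every alternative run. Log2 fold changes that turned sign, none of them past the threshold, were Cpt1a (0.12) and Etfdh (0.22) in mouse group 2 alone, Cpt2 (-0.24) without the mouse group term, Acadvl (-0.014) without both WT replicate 2 and Glut1Tg replicate 1, Hadha (-0.069 without the mouse group term, -0.056 without both libraries, -0.032 in mouse group 1 alone) and Hadhb (-0.072 without both libraries, -0.050 in mouse group 1 alone). Slc25a20 turned to -0.015 (RLE), -0.0083 (no filter), -0.015 (DESeq2), -0.0029 (limma-voom), -0.045 (no mouse group term) and -0.21 (mouse group 2 alone). With 1 library left out, values ran from -0.084 to 0.086 for Slc25a20, -0.014 to 0.37 for Acadvl, -0.056 to 0.086 for Hadha, -0.072 to 0.11 for Hadhb and -0.26 to 0.061 for Etfdh. Between mouse groups the 7 enzymes called became 0 to 7 with 1 library left out, 0 without both libraries and 0 among WT libraries alone, and the 24 other pathway genes became 4 to 27, 5 and 3. Signs turned for Acadm (0.0032 without the filter, 0.026 without the genotype term, 0.15 without both libraries, 0.091 in WT alone; -0.092 to 0.086 with 1 library left out), Etfdh (-0.10), Acsl4 (-0.44) and Fabp5 (-0.12) without both libraries. With 1 library left out, Slc22a5 ran from -0.13 to 0.16, Rxrb from -0.0043 to 0.21 and Acaa1a from -0.019 to 0.31. The Hadha to Hadhb difference was 0.92 to 1.02 with 1 library left out (adjusted exact permutation p = 0.0714 to 0.114). Without both libraries it was 1.00 (adjusted exact permutation p = 0.190). Fewer libraries allow fewer splits, which raises the smallest unadjusted p that can be reached. The unadjusted p of each of these Hadha to Hadhb comparisons stood at that floor. Etfa to Etfb ran from -0.038 to 0.27. The causes of the other changes were not tested. Deviations of same-numbered libraries from their genotype means correlated at -0.54, -0.65, 0.20 and -0.24. Libraries 1, 2 and 4 of the genotypes were in different mouse groups, and mouse group was not removed from these deviations. The correlations therefore cannot decide whether replicate numbers pair the libraries. The replicate block left 0 of the 10 enzymes, 0 of the 68 other pathway genes and 0 of all genes called between mouse groups, with Acadm at 0.016, Slc22a5 at -0.10 and, between genotypes, Slc25a20 at -0.013 and Hadhb at -0.0059. Each of the 10 enzymes had at least 122 counts in every library.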
